A study of Rattus norvegicus with 12 samples.

Results

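Different ways of depriving the striatum of oxygen were set against each other: breathing carbon monoxide at 1000 ppm, and breathing a gas mixture with 5% O2. The members are 6 of the 12 arrays of the series, 3 from rats killed 0, 2 and 6 h after 1000 ppm CO and 3 from rats killed at the same hours after 5% O2, paired by hour. Both gases had been breathed for 40 min, by male Sprague-Dawley rats, and each array holds RNA from the striata of both sides of 1 rat. The brains had been rinsed with saline through the circulation under pentobarbital. All 6 rats were exposed, and no rat breathing air belongs to the comparison. It therefore asks where CO poisoning and low inspired oxygen differ, not what either does on its own. A level is given as log2 of the processed spot intensity after subtraction of the array's 75th percentile, and a difference is 1000 ppm CO minus 5% O2 on that scale, so that 1 is 2-fold. Of 40998 probes, 20482 were well above background on all 6 arrays and brighter than the array median, and they stand for 17178 genes or unnamed transcripts, 9766 of them with a RefSeq symbol.

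Carbon monoxide binds hemoglobin in the place of oxygen and also reaches heme proteins inside cells, such as soluble guanylate cyclase and the terminal oxidase of the respiratory chain. Low inspired oxygen lowers the oxygen pressure in blood without occupying these sites. Both slow the prolyl hydroxylases that mark hypoxia-inducible transcription factors for destruction, after which genes of glucose uptake, glycolysis and blood vessel growth are transcribed. The striatum, built mainly of medium spiny neurons, and the neighbouring globus pallidus are known for their sensitivity to CO poisoning.

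The 3 CO arrays lay on 1 slide (slide 2) and the 3 O2 arrays on another (slide 3), each filled in the order of the hours, so exposure and slide cannot be told apart in these 6 arrays. Between 72.9% and 76.1% of spots were well above background after CO and between 77.4% and 78.5% after O2, and 0 spots were saturated. The median level of 7 spike-in probes was 4.21, 4.32 and 3.77 at 0, 2 and 6 h after CO and 4.00, 4.27 and 3.95 after O2. Another pair of arrays on the same slides holds no O2 and no array of the comparison: 1000 ppm CO at 12 h on slide 2 and 3000 ppm CO at 12 h on slide 3. Its values are given beside the results as the 12 h pair.

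Of the 6 samples, 2 were low in striatal markers. Medium spiny neuron markers summed to 1045 and 1009 units (1 unit is the array's 75th percentile) at 0 and 2 h after CO but to 279.5 at 6 h. After O2 they summed to 88.1 at 0 h and to 610.1 and 722.7 at 2 and 6 h. The low samples, O2 at 0 h and CO at 6 h, were also the ones highest in septal and thalamic neuron markers, at 127.8 and 94.9 units, against 8.83 to 38.5 in the other 4. Hypothalamic peptide genes summed to 79.4 and 130.1 units there and to between 31.4 and 45.3 elsewhere. All 23 medium spiny neuron markers were well above background on every array.

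Choroid plexus and ependyma markers, from the tissue that lines the ventricle beside the striatum, split the arrays in another way. They summed to 7.54 and 15 units at 0 and 2 h after CO and to 351.9 at 6 h, and to 192.9, 403.3 and 434.7 at 0, 2 and 6 h after O2. All 21 were above background on the O2 arrays and on CO at 6 h, while 16 and 18 were at 0 and 2 h after CO. In tissue samples of this kind, fewer cells of a type and less RNA per cell cannot be told apart. Glial sums differed less: astrocyte markers lay between 426 and 525 units on the 6 arrays and microglia markers between 106 and 164.

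**Figure D1:**
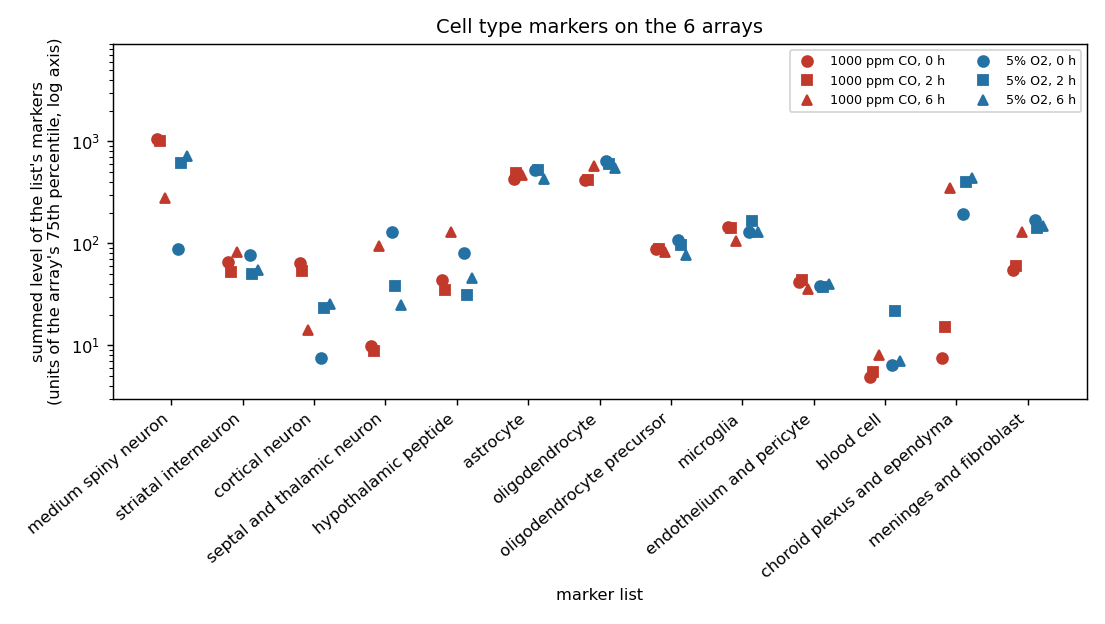
Summed level of each marker list (log axis, in units of the array's 75th percentile) on the 3 arrays of 1000 ppm CO and the 3 of 5% O2, 1 point per array, with the shape giving the hour. Medium spiny neuron markers were lowest in 5% O2 at 0 h (88.1) and CO at 6 h (279.5), and choroid plexus and ependyma markers in CO at 0 and 2 h (7.54 and 15).

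With limma and the hour as a block, 0 of 17178 genes (0%) passed an adjusted p of 0.05. The smallest adjusted p was 0.369, and 1653 genes had an unadjusted p under 0.05, 1127 of them lower after CO and 526 higher. The fit had 2 residual degrees of freedom and a prior of 1.78. On simulated data of this design, with 17178 genes, it called 0% of 2-fold and 44% of 4-fold changes. At adjusted p under 0.05 the same limma test gave 47 genes without the hour block and 95 with all 12 arrays in the fit, every one of them lower after CO. In 47 of the 47 and 93 of the 95, the arrays of slide 2 lay below all other arrays, beside 4.33% of all genes. All 47 and all 95 were also lower on slide 2 in the 12 h pair, which holds no O2 array. The 12 h arrays were themselves in the fit that gave the 95, though not in the one that gave the 47. The choice of these genes thus favours both patterns, and the counts are a description. The CO exposure compared here and slide 2 cannot be told apart in these genes.

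A difference of at least 2-fold in one direction at all 3 hours was found for 38 genes lower after CO (0.221% of those tested) and for 0 genes higher (0%). Within single hours, 1087 genes (6.33%) were at least 2-fold higher and 990 (5.76%) lower after CO at 0 h, 151 (0.879%) and 527 (3.07%) at 2 h, and 304 (1.77%) and 514 (2.99%) at 6 h. The median gene differed by 0.31, 0.23 and 0.25 in size at the 3 hours. That is of the order of the distance between rats of the same exposure: the median gene differed by 0.11 between 0 and 2 h after CO and by 0.29 and 0.31 between either and 6 h. After O2 it differed by 0.14 between 2 and 6 h and by 0.21 and 0.23 between either and 0 h.

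The hours disagreed in direction. Across genes, differences at 0 and 6 h had a Pearson r of −0.49 and those at 2 and 6 h −0.17, whereas 0 and 2 h had 0.72. Genes are not independent replicates and share the composition of the sample, so these values only describe the 3 pairs. In all, 5719 genes (33.3%) kept one sign at the 3 hours, 3125 lower after CO (18.2%) and 2594 higher (15.1%). Of all genes, 48.1%, 51.4% and 47% were higher after CO at 0, 2 and 6 h. The 3 CO arrays were all below the 3 O2 arrays for 1789 genes (10.4%) and all above for 1617 (9.41%).

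**Figure D2:**
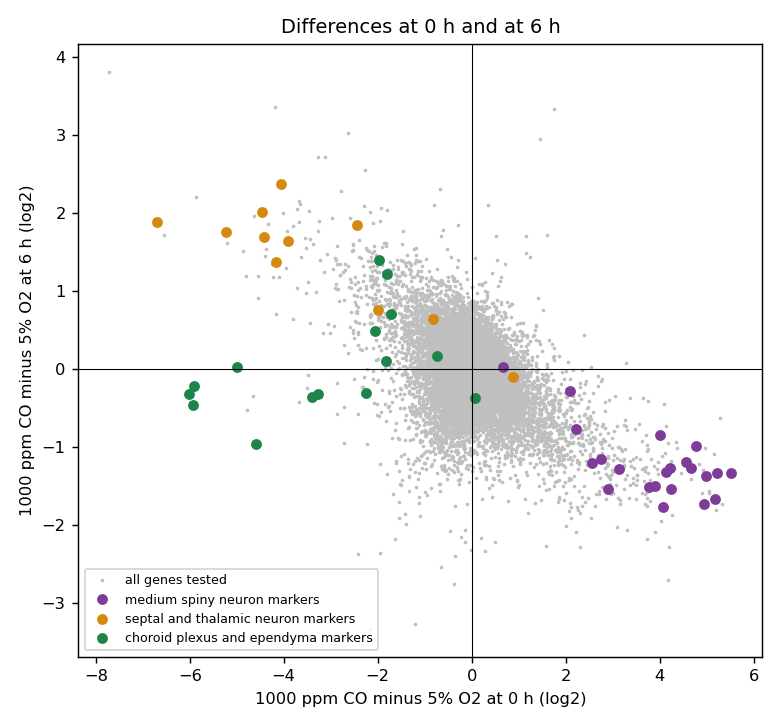
Difference 1000 ppm CO minus 5% O2 (log2) at 0 h on the x axis and at 6 h on the y axis, 1 point per gene tested (17178, grey), with 3 marker lists in colour. Medium spiny neuron markers lie mostly at the lower right (medians 4.10 and −1.30) and septal and thalamic neuron markers mostly at the upper left (medians −4.06 and 1.69).

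The 38 genes lower after CO at every hour were mostly transcripts without a name: 33 (86.8%) had no RefSeq symbol, compared with 43.1% of all genes tested. Of the 5 with a symbol, those described are Cox6c-ps1, a processed pseudogene of a cytochrome oxidase subunit, the olfactory receptor Or6c69b, Nradd, a death domain membrane protein related to the neurotrophin receptor, and Mup4, of the major urinary proteins. Because such probes were designed to rarely studied loci, the probe itself is the identity of the measurement. Those of Cox6c-ps1 and of 3 olfactory receptors are given here as deposited, 60 bases each, beside that of Stk25, a gene with a steady difference in the other direction; no part is marked.
Cox6c-ps1: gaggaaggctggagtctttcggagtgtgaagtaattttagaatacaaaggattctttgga
Or6c69b: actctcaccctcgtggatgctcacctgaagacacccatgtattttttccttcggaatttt
Or8w1b: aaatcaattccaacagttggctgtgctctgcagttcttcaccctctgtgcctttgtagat
Or51a25: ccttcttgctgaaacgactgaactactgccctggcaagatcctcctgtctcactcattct
Stk25: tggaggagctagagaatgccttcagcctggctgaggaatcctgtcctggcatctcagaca

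On the rat build rn4 the files place these probes at chr19:54398113-54398172 (Cox6c-ps1, minus strand), chr7:6494381-6494440 (Or6c69b, minus), chr3:71196637-71196696 (Or8w1b, minus), chr1:160626849-160626908 (Or51a25, plus) and chr9:92909181-92909240 (Stk25, minus). Exon and intron positions were not used here. GC content of the probes was alike, with a median of 43.3% in the set and 43.3% over all genes.

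Cox6c-ps1 stood at −2.03, −2.06 and −1.91 at 0, 2 and 6 h after CO and at −0.23, −0.31 and −0.57 after O2. The groups did not overlap, and the mean difference was −1.63 ± 0.14 (SE, 3 pairs, limma adjusted p = 0.369). Its parent Cox6c, a subunit of the terminal oxidase, was measured by another probe at 6.86, 6.90 and 6.87 after CO and 6.94, 7.07 and 6.92 after O2. That is a mean difference of −0.10 ± 0.10 (limma adjusted p = 0.732), so the parent transcript did not show the offset of the pseudogene probe. Such a probe may also pick up RNA of near-identical copies, which these arrays cannot tell apart.

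Or6c69b, one of the odorant receptors of the nose, was at −2.49, −2.60 and −2.37 after CO and at −0.88, −0.90 and −1.17 after O2. Its mean difference was −1.51 ± 0.15 (limma adjusted p = 0.391). Nradd was at −0.40, −0.56 and −0.52 after CO and at 0.90, 0.93 and 0.76 after O2, a mean of −1.36 ± 0.11 (adjusted p = 0.369). For both genes each CO array lay below each O2 array.

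Most of these 38 probes were also low in the fourth rat given 1000 ppm CO, whose array shared slide 2. In 36 of 38 the 4 arrays of slide 2 were all below the 8 arrays of the other slides, a pattern found for 743 of all genes tested (4.33%). In the 12 h pair 37 of 38 were lower on slide 2 and 25 at least 2-fold, against 218 of all genes (1.27%), with a median of −1.28 in the set and −0.01 over all genes. That 3 of the 4 slide 2 arrays were low was fixed by the way the 38 were chosen; the 12 h array was not used for it. The exception above zero was the unnamed LOC100362283, at 1.60, and it is named after its value was seen. Cox6c-ps1 was at −2.04 in 1000 ppm CO at 12 h; on the arrays of air and 3000 ppm CO it lay from −0.46 to 0.19.

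On slide 3, the rat killed 12 h after 3000 ppm CO differed from the mean of the 3 O2 arrays beside it by a median of −0.11 over the 38 genes and 0.02 over all genes. It lay below all 3 O2 arrays in 20 of the 38, and at least 2-fold below each of them in 1, LOC100362283. Since the 38 were chosen for high levels on those O2 arrays, another array tends to lie below them, and these counts are a description. The low levels thus went with 1000 ppm CO and with slide 2, which cannot be told apart.

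**Figure D3:**
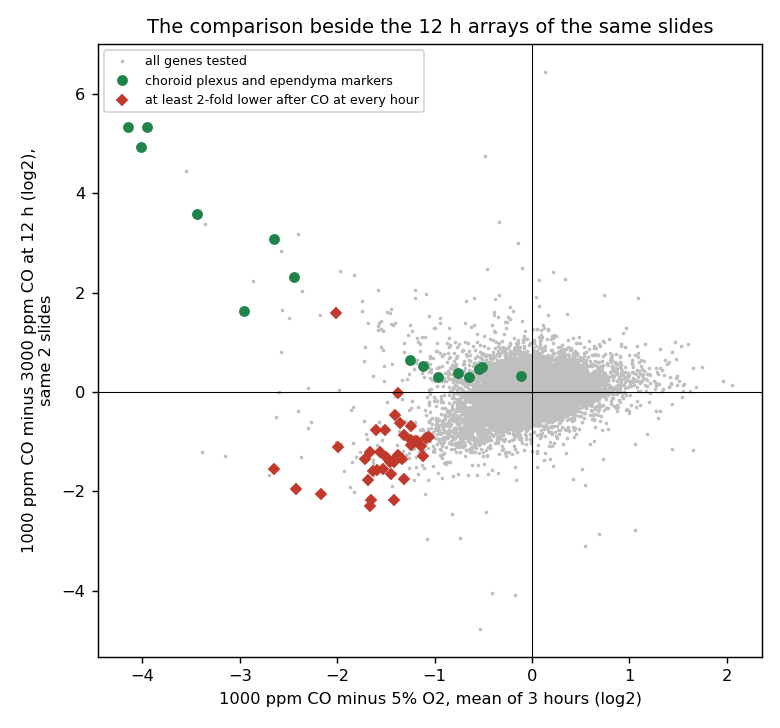
Mean difference 1000 ppm CO minus 5% O2 over the 3 hours (x axis, log2) against the difference 1000 ppm CO minus 3000 ppm CO at 12 h on the same 2 slides (y axis, log2), for 17178 genes in grey. The 38 genes at least 2-fold lower after CO at every hour (diamonds, median −1.28 on the y axis) lie below zero in all but 1 case, and choroid plexus and ependyma markers (circles, median 0.65) above it.

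Many olfactory receptors were lower after CO, by less than the 38 genes. These odour-sensing membrane receptors were counted after Or6c69b and others had been seen, by symbol, and 44 were tested. Of them 34 were lower after CO at all 3 hours (18.2% of all genes) and 0 higher (15.1%), 1 by at least 2-fold, with a median difference of −0.47, beside −0.001 over all genes. In 30 of 44 (68.2%) slide 2 lay below all other arrays, beside 4.33% of all genes. Or8w1b was at a mean of −0.96 and Or51a25 at −0.79, and in the 12 h pair they were at −0.69 and −0.92. The family's median in the 12 h pair was −0.62. Pseudogenes by symbol were less uniform: 11 of 26 were lower at all hours and 1 higher, with a median of −0.08, and 7 had slide 2 below the rest.

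Slide 2 also lay below all other arrays in 3 more of the 12 lowest genes with a symbol: Pbp2, a phosphatidylethanolamine-binding protein family gene (−1.43, −1.34 and −0.91; 12 h pair −1.06), the pseudogene Rpl36al-ps5 (−1.07, −0.89 and −0.92; 12 h pair −0.74) and Cldn23, a tight junction claudin (−0.90, −1.02 and −0.92; 12 h pair −0.66). Sult1b1, a sulfotransferase, differed by −1.16, −0.89 and −1.14, and by −0.61 in the 12 h pair. Just outside the 2-fold limit, a further 38 genes had their smallest hourly difference between −1 and −0.80.

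The major urinary proteins, lipocalins made chiefly in liver of male rodents, were lower after CO without that offset. Mup4 was at −2.08, −2.99 and −2.46 after CO and −0.63, −1.41 and −1.37 after O2, a mean of −1.37 ± 0.14 (limma adjusted p = 0.391). In the 12 h pair it differed by −0.02. Including Obp3, a related lipocalin (−1.33, −1.26 and −0.75), all 6 tested genes of the family were lower after CO at the 3 hours, beside 18.2% of all genes, with a median of −0.80. In 3 of the 6 the CO arrays were all below the O2 arrays, beside 10.4% of all genes. In the 12 h pair their median was 0.21, and slide 2 stood below the rest in 0 of 6, beside 4.33% of all genes. Outside the comparison Mup4 was high in air (−0.88) and 3000 ppm CO at 6 h (−0.29) and between −2.30 and −2.22 at the other hours after 3000 ppm CO. Their sequences are alike enough that the 6 probes may not be separate measurements.

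**Figure D4:**
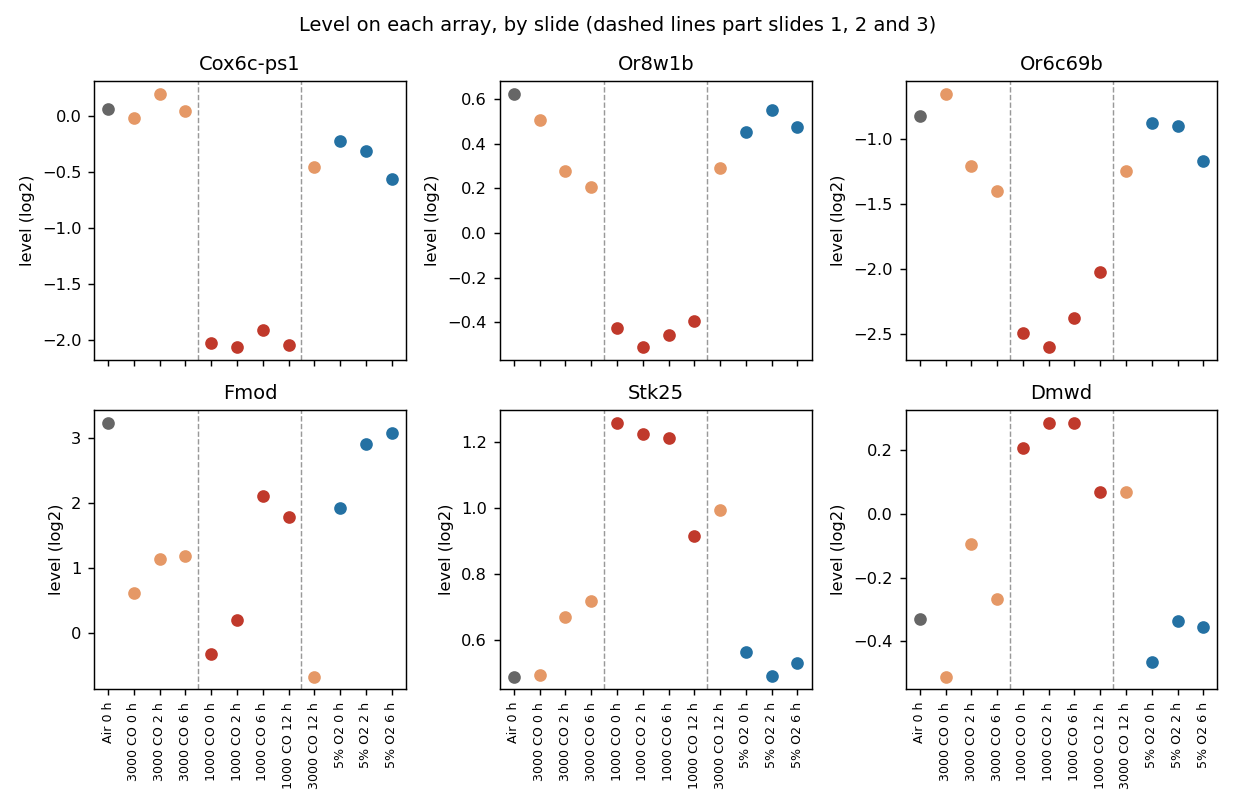
Level (log2 of intensity minus the array's 75th percentile) of 6 genes on all 12 arrays, 1 point per array, ordered by slide and position; red is 1000 ppm CO, blue 5% O2, orange 3000 ppm CO and grey air. Cox6c-ps1, Or8w1b and Or6c69b are low on all 4 arrays of slide 2, Fmod is not, and Stk25 and Dmwd are high after 3000 ppm CO at 12 h on slide 3 as well.

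In the other direction the differences were smaller. No gene reached 2-fold at all hours, and 9 reached 1.5-fold, 8 of them with a symbol. Stk25, a kinase of the Golgi and of cell polarity, was at 1.26, 1.23 and 1.21 after CO and 0.56, 0.49 and 0.53 after O2, a mean of 0.71 ± 0.10 (limma adjusted p = 0.419). Its 3 hourly differences of 0.70, 0.74 and 0.68 were nearly equal, and the groups were far apart relative to their own spread. Dmwd, a WD repeat protein, was at 0.21, 0.28 and 0.29 after CO and −0.47, −0.34 and −0.35 after O2, a mean of 0.64 ± 0.10 (adjusted p = 0.419).

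C10h5orf15, whose function is little known, had the largest such difference, at 0.74, 0.07 and 1.13 after CO and −0.86, −0.82 and −0.59 after O2, a mean of 1.40 ± 0.21 (limma adjusted p = 0.419). Maz, a zinc finger factor that binds GC-rich promoters, differed by 0.84, 1.02 and 0.67, and Plppr2, a phospholipid phosphatase-related membrane protein of neurons, by 0.63, 0.85 and 1.19. Prr12, Rpusd1, a pseudouridine synthase-like protein, and Ubald1 had means of 0.68, 0.84 and 0.69. The rest of the 12 highest were Pianp (0.90), Mrpl38 of the mitochondrial ribosome (0.69) and Epn1, an endocytic adaptor (0.54).

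Over the 9 genes the 12 h pair had a median difference of 0.23, and 1 was at least 1.5-fold higher in it. On slide 3 itself, 3000 ppm CO at 12 h lay above all 3 O2 arrays in 7 of 9, with a median distance from their mean of 0.44; the 9 were chosen for low levels on those O2 arrays, which tilts this count. Stk25 was at 0.99 there and Dmwd at 0.07. However, air stood with the O2 arrays, at 0.49 and −0.33, as did 3000 ppm CO at 0 h, at 0.49 and −0.51. All 4 arrays of slide 2 were above the other 8 in 4 of the 9 genes, a pattern seen for 346 of all genes (2.01%); for 3 of those 4 arrays the choice of the 9 favours it. Their probes were richer in GC than the average, with a median of 55%; across all genes, the GC content of the probe had a Spearman rho of 0.15 with the mean difference and 0.14 with the 12 h pair.

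Neurod2, a transcription factor of excitatory cortical neurons, was also in this group, at −1.15, −1.92 and −3.04 after CO and −2.66, −2.97 and −3.80 after O2. Its mean difference was 1.11 ± 0.19 (limma adjusted p = 0.430), although CO at 6 h lay below O2 at 0 and 2 h. Cortical neuron markers as a list were higher after CO in 8, 8 and 6 of 9 tested at 0, 2 and 6 h (48.1%, 51.4% and 47% of all genes), with medians of 1.22, 0.74 and 0.24. The vesicular glutamate transporter Slc17a7 was at 0.27, −0.98 and −0.37 after CO and −0.07, −1.71 and −2.47 after O2. Summed over 12 markers, the list stood at 64.0, 53.7 and 14.2 units after CO and 7.43, 23.3 and 25.4 after O2. The median level of the same markers was −0.72, −1.49 and −1.75 after CO and −1.66, −1.81 and −2.45 after O2. After O2 the sum thus rose over the hours while the median fell. The part of adjoining cortex in these samples was not tested.

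Choroid plexus genes were far apart between the exposures at 0 and 2 h, and not at 6 h. Ttr, which encodes the thyroxine carrier that choroid plexus secretes, was at 1.34, 2.91 and 8.17 at 0, 2 and 6 h after CO and at 7.36, 8.43 and 8.49 after O2. The differences were −6.02, −5.52 and −0.32, so that CO at 6 h stood with the O2 arrays. Sostdc1, a secreted inhibitor of BMP and Wnt signals, differed by −5.94, −6.04 and −0.46, and the potassium channel Kcnj13 by −5.90, −5.93 and −0.22. The water channel Aqp1 was at −5.13, −3.44 and 0.78 after CO and −0.55, 1.35 and 1.74 after O2, a mean of −3.44 ± 0.91 (limma adjusted p = 0.481).

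Of the 15 listed genes that were tested, 13 were at least 2-fold lower after CO at 0 h and 13 at 2 h, but 0 at 6 h, where 2 were at least 2-fold higher. Over all genes the lower shares were 5.76%, 3.07% and 2.99%, and the higher share at 6 h was 1.77%. The list's medians were −2.25, −1.64 and −0.22, and in the 12 h pair 0.65. Of the other 6 of its 21 genes, 5 were not above background on every array and 1, Sulf1, was too dim. Without the 6 h pair, Sostdc1 and Kcnj13 were the 2 genes that passed, at −5.99 ± 0.12 and −5.92 ± 0.12 (limma adjusted p = 0.0455 for both). That fit rests on 2 pairs and leaves out the hour at which Sostdc1 and Kcnj13 differed by only −0.46 and −0.22. In the 12 h pair they were higher in 1000 ppm CO, by 5.33 and 4.93. With all 3 hours they were at −4.15 ± 1.35 and −4.02 ± 1.38 (limma adjusted p = 0.508 and 0.519).

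Meningeal genes went the same way. Fmod, a collagen-binding proteoglycan, was at −0.31, 0.20 and 2.10 after CO and 1.92, 2.91 and 3.07 after O2, a mean of −1.97 ± 0.39 (limma adjusted p = 0.430). Msx1, a homeobox factor that is in no list here, was at −0.75, −0.68 and 2.73 against 1.97, 3.15 and 3.68. Igf2 and its binding protein Igfbp2 had means of −1.46 ± 0.36 and −2.57 ± 0.79. Of 11 meningeal and fibroblast markers tested, 7 were lower after CO at all hours and 0 higher, beside 18.2% and 15.1% of all genes, with medians of −1.73, −0.83 and −0.27. In the 12 h pair Fmod and Aqp1 were higher in 1000 ppm CO, by 2.44 and 3.58; choroid plexus and ependyma markers summed to 239.8 units in that array and to 13.6 in 3000 ppm CO. Enpp2, counted among the oligodendrocyte markers here but also abundant in choroid plexus, differed by −1.12, −2.16 and −0.41.

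Most medium spiny neuron genes reversed between the hours. Drd1, the dopamine receptor of the direct pathway, was at 0.00, −0.17 and −1.92 after CO and −4.99, −1.22 and −0.54 after O2. Drd2, its counterpart in the indirect pathway, was at 0.15, 0.19 and −1.89 after CO and −3.98, −1.06 and −0.58 after O2. Both were thus lowest in O2 at 0 h and next lowest in CO at 6 h, and their differences were 4.99, 1.05 and −1.37 for Drd1 and 4.13, 1.25 and −1.31 for Drd2.

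The rest of the list followed, apart from 1 gene that was higher after CO at all 3 hours. Of 22 tested, 21 were at least 2-fold higher after CO at 0 h, 8 at 2 h and 0 at 6 h, where 17 were at least 2-fold lower. Over all genes these shares were 6.33%, 0.879% and 1.77%, with 2.99% lower at 6 h. The medians were 4.10, 0.92 and −1.30, and in the 12 h pair 0.26. The adenosine receptor Adora2a differed by 5.17, 0.95 and −1.67 and Ppp1r1b, the dopamine-regulated phosphatase inhibitor DARPP-32, by 4.77, 1.17 and −0.98. The opioid and tachykinin precursors Penk and Tac1 differed by 4.23, 0.84 and −1.26 and by 3.91, 0.91 and −1.50. At 2 h, when the summed markers stood at 1009 and 610.1 units, all 22 were higher after CO. Over the 3 hours 0 passed.

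Several markers of neighbouring regions had the opposite signs. Slc17a6, the vesicular glutamate transporter of thalamic and other subcortical neurons, was at −1.81, −2.45 and 4.25 after CO and 4.89, 2.91 and 2.36 after O2. Pmch, a peptide gene of the lateral hypothalamus, was at −2.43, −2.42 and 5.69 after CO and 5.28, 1.40 and 1.87 after O2. The vasopressin gene Avp differed by −3.13, −0.02 and 2.72. Of 12 hypothalamic peptide genes tested, 5 were at least 2-fold lower and 3 at least 2-fold higher after CO at 0 h. At 6 h 0 were lower and 5 higher by as much. Over all genes the lower and higher shares were 5.76% and 6.33% at 0 h and 2.99% and 1.77% at 6 h. The neuropeptide genes Nts (1.37, 0.20 and 0.56) and Tac3 (1.29, 0.60 and 0.12) were higher after CO at each hour. Septal and thalamic markers had medians of −4.06, −2.33 and 1.69. Of 11 tested, 9 and 7 were at least 2-fold lower at 0 and 2 h, beside 5.76% and 3.07% of all genes. At 6 h, 8 were at least 2-fold higher, beside 1.77%.

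Heme-dependent signalling, where CO could act directly, is read against that background, since several of its genes mark medium spiny neurons. Gucy1a1 and Gucy1b1 encode the subunits of soluble guanylate cyclase, the heme sensor that makes cGMP. Gucy1a1 was at 3.25, 3.22 and 1.98 after CO and −0.06, 2.27 and 2.76 after O2, and Gucy1b1 at 3.11, 3.01 and 2.27 against 1.43, 2.45 and 2.71. The phosphodiesterases Pde10a, Pde1b and Pde2a, which break cyclic nucleotides down, differed by 3.76, 1.06 and −1.52, by 2.92, 1.08 and −0.98 and by 2.83, 1.03 and −0.76. All 5 had the sign of Drd1 at each hour. Of 12 tested genes of nitric oxide and cGMP signalling, 10, 8 and 1 were higher after CO at 0, 2 and 6 h, beside 48.1%, 51.4% and 47% of all genes, with 0 passing. Ddah1, which degrades an inhibitor of nitric oxide synthase, went the opposite way, by −2.47, −1.33 and 0.82. Nos1 failed the brightness filter, and Nos2 was not well above background on any of the 6 arrays.

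Hmox1, the enzyme that releases CO from heme, was at like levels on the 6 arrays: −1.29, −1.19 and −1.33 after CO and −1.24, −1.19 and −1.22 after O2, a mean of −0.06 ± 0.10 (limma adjusted p = 0.843). Of 25 tested genes of oxidative stress and heme metabolism, 3 were higher (15.1% of all genes) and 4 lower (18.2%) at all hours, and 0 passed. The metallothioneins Mt1 and Mt2A, zinc-binding proteins induced by stress hormones and metals, were lower after CO at each hour, with differences of −0.38, −0.64 and −0.38 and of −0.20, −0.70 and −0.58.

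Hypoxia-inducible genes, taken as a list, lay near the median of all genes. Their medians were −0.02, −0.03 and 0.07 at 0, 2 and 6 h, beside −0.02, 0.01 and −0.03 for all genes. Of 22 tested, 4 were higher after CO at all hours (15.1% of all genes), 3 lower (18.2%) and 0 passed. Slc2a1, which carries glucose across brain capillaries, differed by 0.11, −0.13 and −0.09. The growth factor Vegfa was at 0.74, 1.40 and −0.27 after CO and 0.50, 0.69 and 0.44 after O2. Ddit4, an inhibitor of mTOR, differed by 0.19, 0.03 and 0.37.

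At 0 h, 2 of the 22 were at least 2-fold lower after CO and 1 higher, beside 5.76% and 6.33% of all genes. Mxi1, an antagonist of Myc, differed by 1.25, 0.38 and −0.68, and the transcriptional repressor Bhlhe40 by −1.04, −0.11 and 0.27. Adm, a vasodilator peptide, was at −0.61 after CO and 1.72 after O2; at 2 and 6 h it was at −0.10 and −0.70 against −0.51 and −0.47. Car9, a carbonic anhydrase known as a hypoxia marker, was at −2.07, −2.17 and −2.38 after CO and −1.68, −1.64 and −1.58 after O2. Its mean was −0.58 ± 0.13 (limma adjusted p = 0.445), the groups did not overlap, and in the 12 h pair it was also lower on slide 2, at −0.76. Epo was not well above background on any of the 6 arrays.

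Glycolytic genes had medians of 0.03, 0.16 and 0.19, and −0.12 in the 12 h pair. The list's median over the mean differences was 0.14, and −0.01 with normexp background correction. Of 24 tested, 7 were higher at all hours (15.1% of all genes), 3 lower (18.2%) and 0 passed. Ldha, which makes lactate, was at 2.55, 2.61 and 2.64 after CO and 2.11, 2.28 and 2.44 after O2, a mean of 0.32 ± 0.11 (limma adjusted p = 0.519). Gpi, the isomerase of glucose 6-phosphate, had a mean of 0.30 ± 0.10. Pdha1, the subunit through which pyruvate enters the mitochondrion's cycle, was at 3.52, 3.40 and 3.58 against 3.96, 3.79 and 3.87, and in the 12 h pair it was again lower on slide 2, at −0.40.

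**Figure D5:**
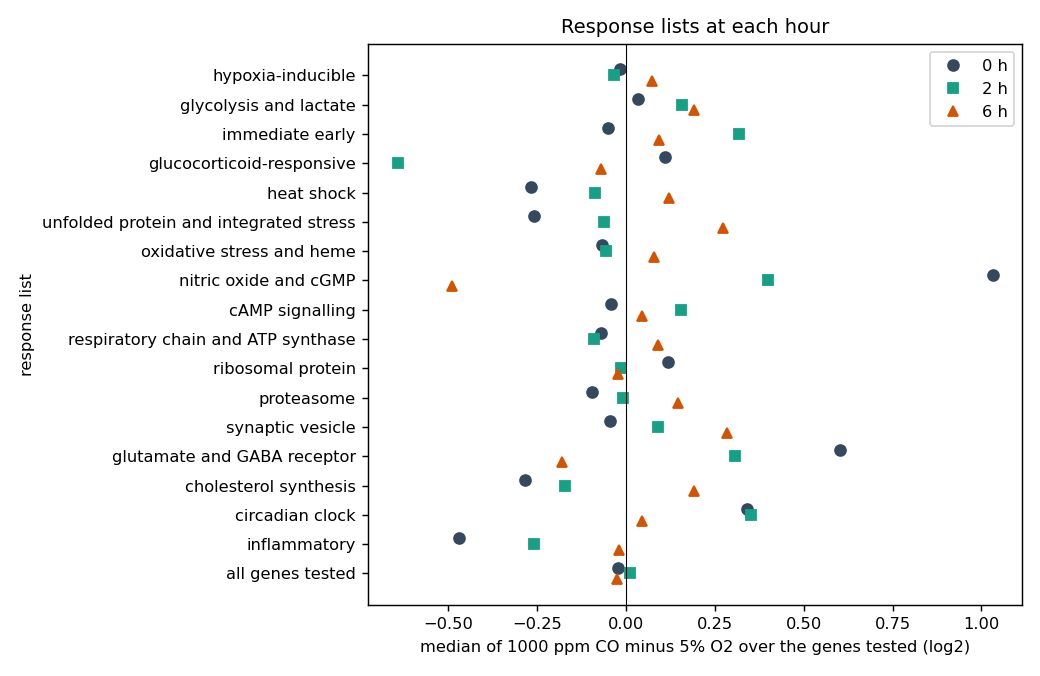
Median difference 1000 ppm CO minus 5% O2 (log2) over the tested genes of each response list at 0 h (circles), 2 h (squares) and 6 h (triangles), with all genes tested in the last row. Nitric oxide and cGMP genes spread from 1.03 at 0 h to −0.49 at 6 h, and glucocorticoid-responsive genes stand at −0.64 at 2 h.

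Immediate early genes, which cells transcribe within minutes of a stimulus, split at 0 h: 9 of 29 tested were at least 2-fold higher after CO and 6 at least 2-fold lower, beside 6.33% and 5.76% of all genes. Those higher include the synaptic activity genes Egr2, at −0.07 after CO and −3.81 after O2, Homer1, at 1.58 and −0.71, and Arc, 2.59 higher after CO. At 6 h their differences were −1.03, −0.82 and −0.87, with the sign of the medium spiny neuron markers. Those lower include the stress factor Atf3, at −0.35 after CO and 1.64 after O2, the antiproliferative Btg2, at 1.35 and 2.99, and Apold1 of vascular endothelium, at 1.67 and 3.29. By 2 h Btg2 was at −0.26 and −0.09 and Apold1 at −1.08 and −1.49.

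Klf2, a flow-responsive factor of endothelium, was higher after CO at 0 h (−0.18 against −1.25) and within 0.44 at 2 and 6 h. Ccn2, a matrix-associated growth factor, kept one sign, at 0.57, 0.40 and 0.63, a mean of 0.53 ± 0.11 (limma adjusted p = 0.435), and at 0.00 in the 12 h pair. Over the list 0 of 29 passed, and medians were −0.05, 0.32 and 0.09.

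Chemokine genes, dim throughout, had their highest levels in O2 at 0 h. Ccl2, which attracts monocytes, was at −4.85, −4.24 and −4.26 after CO and −1.54, −4.11 and −3.69 after O2. Cxcl1 and Cxcl2, which attract neutrophils, were well above background in O2 at 0 h alone, at −3.37 and −3.53. Il1b, an inflammatory cytokine, was at −3.63 in that sample, at −4.26 in O2 at 6 h and lower elsewhere, and well above background on every array but CO at 0 h. These 4 genes failed the filter, and of 7 inflammatory genes tested 0 passed, with 2 lower after CO at all hours (18.2% of all genes). That sample is also the one lowest in medium spiny neuron markers, and 1 rat stands behind each of these values.

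Glucocorticoid-responsive genes, induced by the stress hormone corticosterone, parted at 2 h, when their median was −0.64 and 6 of 17 tested were at least 2-fold lower after CO, beside 3.07% of all genes. Pdk4, a kinase that shuts pyruvate out of the mitochondrion, was at −0.31, −1.86 and −1.69 after CO and −0.70, 0.45 and −1.76 after O2. Sgk1, which regulates ion channels, was at 2.79, 1.14 and 1.70 against 2.27, 2.74 and 1.13, and Tsc22d3 at 2.85, 2.52 and 2.48 against 2.74, 3.53 and 2.36. The cell cycle inhibitor Cdkn1a differed by −1.20, −1.73 and −0.09. In O2 at 2 h these 4 genes were thus at their highest of that exposure, while in CO they were not. Map3k6, of the same list, was at −1.28, −1.22 and −1.82 after CO and −0.16, −0.20 and −1.75 after O2. Map3k6 and Cdkn1a were the 2 of 17 at least 2-fold lower after CO at 0 h, beside 5.76% of all genes. Medians at 0 and 6 h were 0.11 and −0.07, and 0 genes passed over the 3 hours. Per1, which belongs to the clock as well, was the other way, at 0.90, 0.37 and 0.45.

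Blood cell genes were higher in that same O2 sample at 2 h. The globin genes Hbb-b1 and Hba-a3 were at 0.85 and 1.42 after CO and 3.41 and 3.30 after O2 at 2 h, and their differences at 0 and 6 h lay from −0.56 to 0.35. The summed blood markers, 14 on the array, were at 21.9 units in that sample, against a range of 4.87 to 7.96 over the remaining 5 arrays. Whether blood RNA bears on the 2 h differences was not tested.

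Circadian clock genes were higher after CO in 4 of 13 at all hours (15.1% of all genes) and lower in 0 (18.2%), with medians of 0.34, 0.35 and 0.04. Nr1d1, a repressor of the clock loop, was at −0.46, −0.46 and −0.41 after CO and −0.80, −1.21 and −0.90 after O2, a mean of 0.53 ± 0.13 (limma adjusted p = 0.464). The labels give no clock time of death.

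Chaperone and stress gene lists had small medians that went from below zero at 0 h to above it at 6 h. At 0, 2 and 6 h, 7, 7 and 15 of 21 heat shock genes were higher after CO. For unfolded protein and integrated stress genes it was 3, 7 and 16 of 24. Over all genes these shares were 48.1%, 51.4% and 47%. Heat shock genes had medians of −0.27, −0.09 and 0.12, with 0 of 21 passing. Cryab, a small heat shock protein abundant in oligodendrocytes, was at 4.96, 4.91 and 5.30 after CO and 5.75, 5.79 and 5.69 after O2, a mean of −0.69 ± 0.15 (limma adjusted p = 0.439). Unfolded protein and integrated stress genes had medians of −0.26, −0.06 and 0.27; Atf4, the factor that leads the integrated stress response, differed by −1.01, −0.55 and 0.27. The pseudokinase Trib3 failed the brightness filter, at −3.56 after CO and −1.59 after O2 at 0 h.

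Housekeeping groups differed little. Ribosomal protein genes had medians of 0.12, −0.02 and −0.02 (44 tested), proteasome genes −0.09, −0.01 and 0.15 (27) and respiratory chain and ATP synthase genes −0.07, −0.09 and 0.09 (44), and in these lists 0 genes were 2-fold apart at any hour. Cox4i1, a subunit of the oxidase to which CO can bind, was at 4.92, 4.94 and 4.91 after CO and 4.58, 4.61 and 4.49 after O2, a mean of 0.36 ± 0.10 (limma adjusted p = 0.484). In air it was at 4.31 and in 3000 ppm CO at 12 h at 4.93. Sdhc, of complex II, had a mean of −0.42 ± 0.12. Cox7c had probes of both signs.

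Synaptic genes joined both patterns. Grin1, the obligate NMDA receptor subunit, was at 3.73, 3.56 and 3.26 after CO and 2.98, 2.89 and 2.92 after O2, a mean of 0.59 ± 0.13 (limma adjusted p = 0.448), though its second probe had the other sign. Of 24 glutamate and GABA receptor genes 10 were at least 2-fold higher after CO at 0 h, beside 6.33% of all genes, and the medians were 0.60, 0.31 and −0.18. Syn1, which tethers synaptic vesicles, differed by 0.27, 0.58 and 1.12. For synaptic vesicle genes the medians were −0.05, 0.09 and 0.28. The cAMP list held Adcy8 (−2.80, −1.68 and 1.35) and Gnal (2.09, 1.08 and −0.29), a G protein of medium spiny neurons. Cholesterol synthesis genes had medians of −0.28, −0.17 and 0.19.

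Oligodendrocyte genes were lower after CO at 0 and 2 h in all 18 tested, with medians of −0.56 and −0.52, and at −0.06 at 6 h. In 7 of 18 the CO arrays were all below the O2 arrays, beside 10.4% of all genes, and 7 were lower at an unadjusted p under 0.05, beside 6.56%; in the 12 h pair the median was 0.43. Ugt8, which makes the myelin lipid galactosylceramide, was at −1.17, −1.30 and −1.32 after CO and −0.62, −0.69 and −1.04 after O2, a mean of −0.48 ± 0.12 (limma adjusted p = 0.475). The myelin protein gene Mbp differed by −0.48, −0.27 and −0.27. Their precursors had a median of −0.20.

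Astrocyte genes had a median of −0.13, and 2 of 16 were at least 2-fold lower after CO at 0 h, beside 5.76% of all genes. These were Agt, the angiotensin precursor (−2.11, −0.64 and 0.88), and the gap junction gene Gjb6 (−1.14, −0.44 and 0.23). Gfap, the intermediate filament raised in reactive astrocytes, was at 0.74, 0.39 and 0.23 after CO and 1.42, 1.12 and 0.78 after O2, a mean of −0.65 ± 0.11 (limma adjusted p = 0.419), and in the 12 h pair it was higher on slide 2 by 0.98. The growth factor receptor Fgfr3 had a mean of −0.59 ± 0.13. Microglia and endothelial lists had medians of 0.03 and 0.17, and of their 15 and 15 tested genes 0 passed. The transporter Slco1a4 and the channel subunit Abcc9, of endothelium and pericytes, differed by 0.34, 1.01 and 0.10 and by 0.69, 0.43 and 0.17. Interneuron genes differed among themselves: the calcium-binding Calb2 differed by −4.06, −2.63 and 2.37, and the neuropeptide Npy by 1.99, 0.74 and −0.71. Calb2 is also counted among the septal and thalamic neuron markers here.

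Single genes far apart at 1 hour were often in these lists. Others were Tac4, a tachykinin, which stood 5.13 higher after CO at 2 h and was at −2.69 in that O2 array but between 1.27 and 2.44 in the other 5. Galnt16, an enzyme that starts O-glycans, was 3.33 higher at 6 h and 1.75 at 0 h, yet −0.40 at 2 h, and Fam184b differed by −2.75 at 6 h.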

How the data were processed

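Labelled RNA from the striata of 12 rats was hybridised to 1-colour Agilent whole rat genome arrays, and the 6 arrays of 1000 ppm CO and 5% O2 at 0, 2 and 6 h were compared. Per the file headers, the scanner images were quantified by Feature Extraction version 10.7.3.1 of Agilent; the deposited processed signal is an intensity after background subtraction within each array, with no scaling between arrays. The mean signal and local background of a spot are deposited as raw intensities. The deposited series table holds log2 values centred on each array's median (correlation with the log2 processed signal at least 0.9999). The number of arrays limits the precision.

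Log2 processed signals were taken minus each array's 75th percentile; outlier spots were left out, spots of a probe averaged, and 14 probes lacking a usable spot on some array dropped. RefSeq names (assembly GRCr8, names only) matched 21156 probes, and 19842 kept the name in the file. Probes above background on all 6 arrays and above the array median were kept, and the brightest stood for its gene. limma 3.58.1 in R 4.3.3 fitted exposure with hour as a block, two-sided, with Benjamini-Hochberg adjustment at 0.05. Pairing follows the hours: deviations from the group means correlated across genes at −0.43, 0.51 and −0.46 at 0, 2 and 6 h. Each hour is 1 rat per exposure, so p-values measure the spread between hour pairs. The fit was tested on simulated data.

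Members, 17 response lists and 13 marker lists were chosen with earlier results of these data known. Named were the 12 highest and 12 lowest genes with a symbol by their smallest hourly difference of one sign, the 3 largest each way at each hour, up to 4 per list by mean difference and any member of a list described. Alternatives covered normalization, background, source table, filter, probes, hour block, arrays, variance prior and hours. Results for some genes that the rule names are not reported here.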

Additional observations from a re-analysis of the deposited data

Results flagged for a closer look

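Lists whose median lay at least 0.5 log2 units one way at one hour and as far the other way at another were set apart; with 1 rat per exposure and hour, these reversals were not tested. Medium spiny neuron markers had medians of 4.10, 0.92 and −1.30 (1000 ppm CO minus 5% O2) at 0, 2 and 6 h. Septal and thalamic neuron markers had −4.06, −2.33 and 1.69. Hypothalamic peptide genes had −0.81 at 0 h and 0.66 at 6 h.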

How the results depend on the processing

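The count of genes past an adjusted p of 0.05 stayed at 0 under quantile normalization, normexp background correction, the deposited series values, 3 other filters, every probe on its own, the mean over probes and a trended robust prior, with 816 to 3303 genes at an unadjusted p under 0.05. It was 47 without the hour block, all lower after CO, with 29 of them among the 38. With all 12 arrays it was 95, with 28 among the 38. Slide 2 lay below the rest in 47 and 93 of them, beside 4.33% of all genes. The choice of these genes favours that pattern. Leaving out 1 hour pair gave between 0 and 2 genes, the 2 without 6 h. No paired analysis was possible with slide as a block because each exposure lies on 1 slide.

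The 38 genes 2-fold apart at all hours became 194 at 1.5-fold (9 higher after CO) and 4 at 3-fold, 18 with normexp, 15 with the stricter brightness filter and 198 with no filter (36 higher). With 1 hour left out there were between 48 and 478, the last without 6 h. Within slide 3, 3000 ppm CO at 12 h was 2-fold from each O2 array for 102 genes (93 lower), 1 of them among the 38; this was chosen after seeing the data. Of 145 named genes, the mean difference changed sign for 0 with quantile normalization or series values, 3 with normexp (Hspa1b, Bcl3 and Icam1), 1 over the mean of probes (Vwf), 1 with all 12 arrays (Lcn2), and 13, 4 and 1 without 0, 2 and 6 h. Of 30 list medians, 10, 6 and 2 changed sign without 0, 2 and 6 h, 5 with normexp (hypoxia-inducible, glycolysis, ribosomal protein, proteasome, microglia), 4 with series values (heat shock, unfolded protein, oxidative stress, respiratory chain) and 1 with quantile normalization (hypoxia-inducible). The cause was not tested. Levels near background limit the dim probes.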
